A study of Saccharomyces cerevisiae with 12 samples.

Results

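The hexose transporter genes HXT1 to HXT7, the glucose sensor genes RGT2 and SNF3 and the glucose signalling gene STD1 were followed in budding yeast through heat shock and through nuclear depletion of the J-domain protein Sis1. They are the rows of the deposited table with these 10 gene names, and all 10 were found among its 5045 genes. The table holds 12 polyA RNA-seq libraries of 1 strain, labelled Sis1-AA, grown in YPD, a rich medium with glucose. In the heat shock course cells were sampled at 30 °C (0 min) and 15, 30, 60, 90 and 120 min after a shift to 39 °C. In the rapamycin course they were sampled before (0 min) and 15, 30, 60, 90 and 120 min after addition of 1 µM rapamycin, which in the anchor-away method ties tagged Sis1 to an anchor protein that carries it out of the nucleus. Each time point is 1 library, so no condition is replicated. No library of an untagged strain given rapamycin is among the 12, so an effect of the drug and an effect of Sis1 depletion cannot be told apart here.

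Yeast takes up glucose by facilitated diffusion through the Hxt proteins. Hxt1 and Hxt3 are low-affinity carriers that serve cells in abundant glucose, Hxt2 and Hxt4 have higher affinity, and Hxt6 and Hxt7 are high-affinity carriers that are repressed by abundant glucose. HXT5 is known as the transporter gene of slow-growing and stressed cells. Rgt2 and Snf3 resemble transporters but sense glucose: with the casein kinases Yck1 and Yck2 they trigger the destruction of Mth1 and Std1, which otherwise help the repressor Rgt1 to silence HXT genes. Mig1, controlled by the kinase Snf1, represses genes when glucose is plentiful.

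All 10 genes have 1 coding exon. In sacCer3, the build named in the submitters' processing notes, HXT4 (YHR092C, chrVIII:287081-288811), HXT1 (YHR094C, chrVIII:290913-292625) and HXT5 (YHR096C, chrVIII:294669-296447) lie next to each other on the minus strand. HXT7 (YDR342C, chrIV:1154216-1155928), HXT6 (YDR343C, chrIV:1159608-1161320) and HXT3 (YDR345C, chrIV:1162957-1164660) form a second minus-strand cluster. HXT2 (YMR011W) is at chrXIII:288079-289704, RGT2 (YDL138W) at chrIV:213351-215642 and SNF3 (YDL194W) at chrIV:111580-114234, all on the plus strand. STD1 (YOR047C) is at chrXV:416347-417681 on the minus strand. The coding sequences of the 7 transporter genes are related, with 71.5% to 83.3% identical bases in the 20 pairs other than HXT6 and HXT7.

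HXT6 and HXT7 were 99.8% identical in the RefSeq R64 genome, the same assembly as sacCer3, and differed at 3 of 1713 coding bases. Their only differing stretch, coding bases 1621 to 1690 counted from the A of the start codon, is shown because reads can be told apart only near it. Capitals mark the differing bases.
HXT6, chrIV:1159631-1159700, minus strand: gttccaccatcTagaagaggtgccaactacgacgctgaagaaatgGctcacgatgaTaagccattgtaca
HXT7, chrIV:1154239-1154308, minus strand: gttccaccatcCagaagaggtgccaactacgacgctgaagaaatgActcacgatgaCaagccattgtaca
From HXT6 to HXT7 the substitutions are T1632C, G1666A and T1677C. Of the 1664 words of 50 bases in each of these coding sequences, 82 (4.93%) occurred once in the genome, against 1581 of 1664 for HXT1, 85.1% for HXT3, 96.0% for HXT5, 97.5% for HXT4 and 100% for HXT2, RGT2, SNF3 and STD1. The counts of HXT6 and HXT7 are therefore uncertain in level and in their split between the genes. How reads with several places in the genome were treated is not given in the sources used here.

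Depth was 2991418 to 4379304 reads per library, summed over the listed genes. The authors' values are gene read counts divided by 1 factor per library, called normalized read counts here. A count of 3 reads corresponds to 2.44 to 4.28 in this unit. Counting intervals below cover counting error only, and the reads carry no molecular identifiers. The abundance of the 10 most expressed genes differed between the courses, with 8.29% to 14.46% of reads in heat shock libraries and 6.97% to 7.74% in rapamycin libraries. Its part in the results was not tested.

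Before treatment the order of levels per kilobase of coding sequence was led by HXT3 in both courses, with 1538 normalized reads per kb in the heat shock course and 1347 in the rapamycin course. HXT2 followed with 1152 and 784.8 per kb. HXT1 had 658.5 and 436.0 per kb and HXT4 521.5 and 447.9, so these neighbours in the order changed places between the untreated libraries. HXT5 stood at 32.9 and 27.7 per kb and HXT7 at 9.16 and 16.6. The level of HXT7 is uncertain given its sequence shared with HXT6, and so are its place in the order and the shares that follow. Reads of HXT1 to HXT4 made up 98.8% of the reads of the 7 transporters in the untreated heat shock library and 98.4% in the untreated rapamycin library. The untreated libraries were not equal: HXT1 was 1.51 times as high in the heat shock course as in the rapamycin course (95% exact interval 1.37 to 1.67), HXT2 1.47 times (1.36 to 1.59), RGT2 1.41 times (1.07 to 1.86) and SNF3 1.49 times (1.07 to 2.07). HXT7 was 0.552 times as high (0.250 to 1.13) on few reads.

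**Figure D1:**
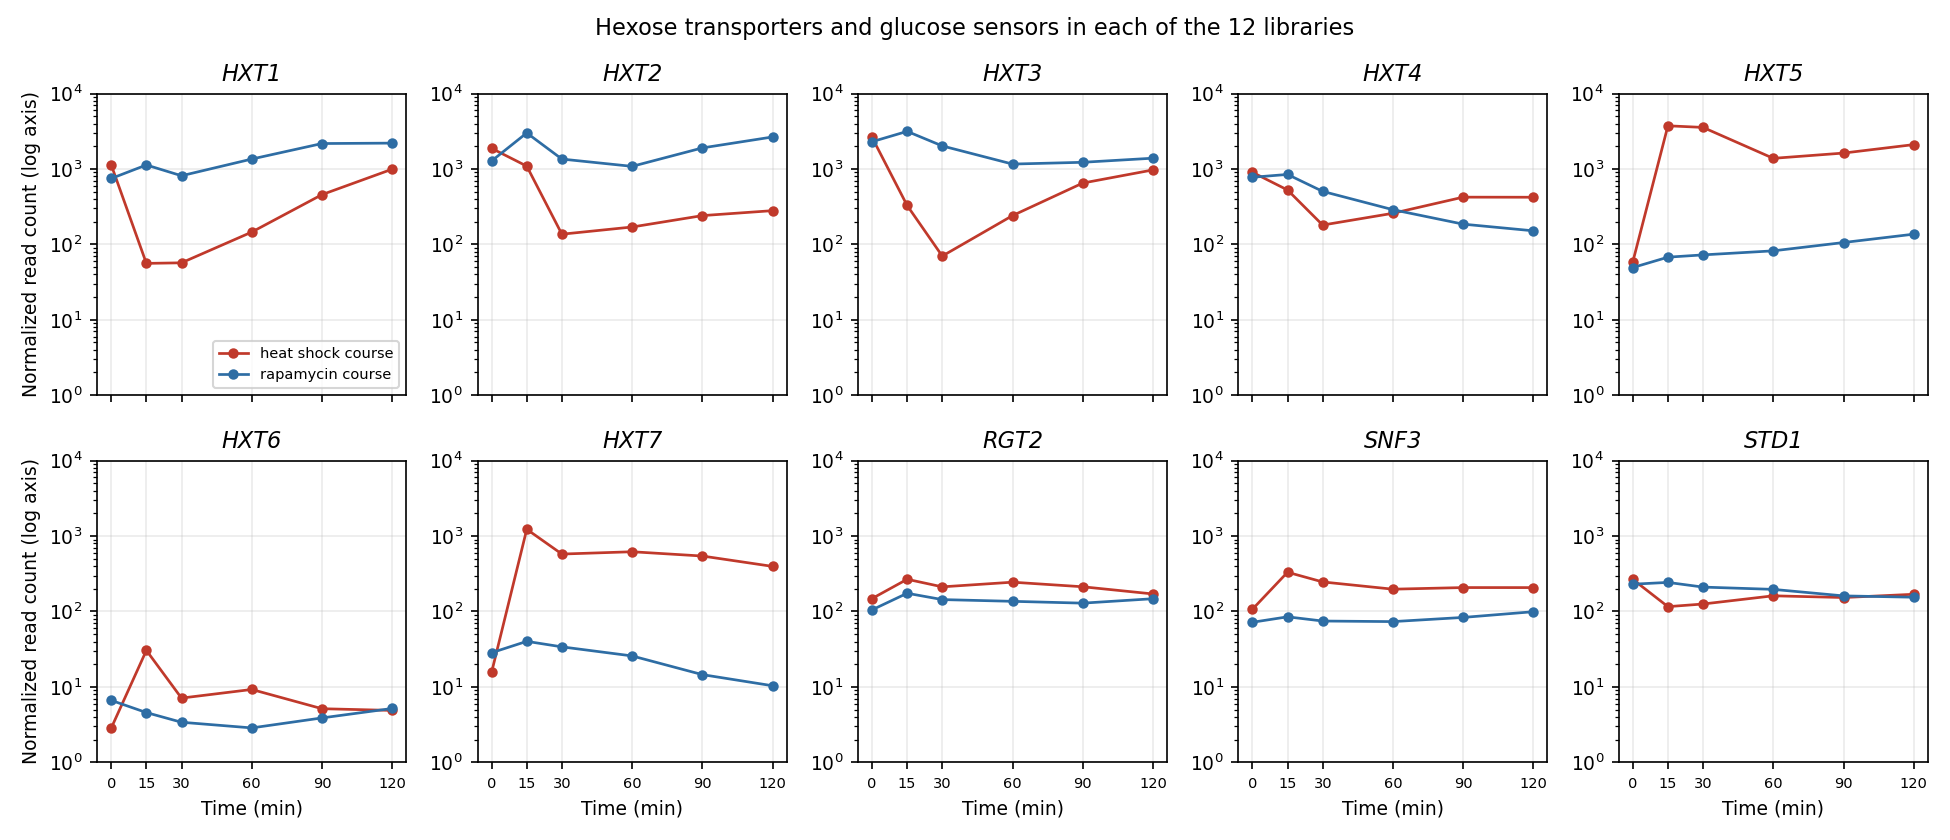
Normalized read count (log axis) against time in minutes for each of the 10 genes, with 1 point per library, the heat shock course in red and the rapamycin course in blue. In heat shock HXT1 to HXT4 dip while HXT5 and HXT7 stay at 1381 or more and 396.1 or more at every treated time, against 58.47 and 15.69 untreated.

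In heat shock the leading transporter mRNAs changed places. The transcripts of HXT1, HXT2, HXT3 and HXT4, the carriers that dominated the counts of untreated cells, fell. Those of HXT5 and HXT7, which as counted had been near the bottom of the order, rose by more than 5 on the log2 scale. The sensor genes RGT2 and SNF3 rose and STD1 fell. Of the 10 genes 9 passed the filter on low values (a mean of at least 10), and HXT6 did not. All 9 were called in the mean change of the course, 4 higher and 5 lower. Over all 4937 genes tested, 69.8% were called in this course (32.6% higher and 37.2% lower), so a call alone sets these genes little apart. Mean changes are on the log2(value + 1) scale, averaged over the 5 treated libraries against the untreated library, with standard errors (SE) and Benjamini-Hochberg adjusted p from 1 limma fit across all genes and libraries. A gene is called at an adjusted p under 0.05. The SE measures departure from a straight line in log2(time) over both courses together, not spread between cultures. The p-values describe these 12 libraries.

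HXT1, the low-affinity transporter gene induced by abundant glucose, had 1128 normalized reads untreated and 55.92, 56.90, 145.4, 456.3 and 993.1 at 15, 30, 60, 90 and 120 min of heat shock. It was lowest in the first 2 treated libraries and close to its untreated value in the last. At 15 min the untreated value was 20.2 times the treated one (95% exact interval 15.3 to 27.0), and at 120 min 1.14 times (1.04 to 1.24). The mean change was −2.61 ± 0.54 (SE, adjusted p 0.00137 in limma), and the course also held a rising trend of 1.39 ± 0.20 per doubling of time between 15 and 120 min (adjusted p 0.000402 in limma).

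HXT3, the most abundant of the 7 before treatment, had 2621 normalized reads untreated and 327.4, 69.94, 240.4, 649.5 and 970.3 at the 5 treated times. Its lowest value came at 30 min, when the untreated value was 37.5 times as high (28.9 to 49.4), and at 120 min it was still 2.70 times as high (2.51 to 2.91). The mean change was −3.02 ± 0.82 (SE, adjusted p 0.00698 in limma). HXT3 shared its low point at 30 min with HXT2 and HXT4, whereas HXT1 was about as low at 15 min as at 30 min.

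HXT2 had 1874 normalized reads untreated and 1089, 136.3, 169.8, 240.5 and 279.8 at the treated times. It was lower than untreated in all 5 treated libraries, and its 120 min value remained far below the untreated one, which was 6.70 times as high (5.94 to 7.56). Its mean change was −2.74 ± 0.80 (SE, adjusted p 0.0107 in limma). HXT4 had 902.8 normalized reads untreated and 525.7, 180.2, 258.1, 422.4 and 421.3 at the treated times. Its mean change was −1.42 ± 0.44 (SE, adjusted p 0.0143 in limma), and the untreated value was 2.14 times that at 120 min (1.91 to 2.41). These 4 transporter genes thus had different ends to the course: the untreated value was 1.14 times the last one for HXT1, 2.14 times for HXT4, 2.70 times for HXT3 and 6.70 times for HXT2.

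HXT5 had 58.47 normalized reads untreated and 3731, 3551, 1381, 1623 and 2102 at the 5 heat shock times. Every treated library was at least 23.6 times as high as the untreated one, and the ratio at 15 min was 63.8 (46.9 to 89.1). The mean change was 5.27 ± 0.32 (SE, adjusted p 3.62e-07 in limma). In these bulk samples a change in the number of cells that express a gene and a change in RNA per cell cannot be told apart. HXT7, the high-affinity carrier gene, had 15.69 normalized reads untreated, which were 11 reads, and 1230, 577.3, 619.6, 543.6 and 396.1 at the treated times. Its ratio at 15 min was 78.4 (43.7 to 158) and its mean change 5.23 ± 0.29 (SE, adjusted p 2.02e-07 in limma). With HXT6 and HXT7 summed as 1 gene the change was 5.02.

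Both genes were highest at 15 min and had falling trends of −0.41 ± 0.12 for HXT5 and −0.44 ± 0.11 for HXT7 per doubling of time (SE, adjusted p 0.0137 and 0.00604 in limma). Without the 15 min heat shock library the trends were −0.42 and −0.23 and neither was called. HXT5 also lost the call of its trend under equal totals (−0.24), quantile normalization (−0.27) and with the slope in minutes (−0.59 per 60 min). Within the course the log2 changes of HXT5 and HXT7 differed by a root-mean-square of 0.552 over the 5 treated libraries, the smallest distance among all pairs of the 10 genes.

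HXT6 had 2 reads before heat shock and 30, 6, 11, 5 and 6 reads at 15, 30, 60, 90 and 120 min. The ratio at 15 min was 10.7, with a wide exact interval of 2.71 to 92.4, and the intervals of the 4 later times include 1. Given the shared sequence, reads listed under HXT6 may also come from HXT7.

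The regulators moved less. SNF3, the sensor of low glucose, had 107.0 normalized reads untreated and 331.5, 246.6, 197.6, 207.6 and 207.4 at the heat shock times, above untreated throughout. Its mean change was 1.12 ± 0.18 (SE, adjusted p 0.000246 in limma). RGT2, the sensor of abundant glucose, had 148.3 normalized reads untreated and 267.4, 212.2, 244.7, 212.7 and 170.8 at those times. Its mean change was 0.56 ± 0.17 (SE, adjusted p 0.0122 in limma), and at 120 min the exact interval of its ratio to untreated, 0.906 to 1.47, included 1. STD1, which keeps HXT genes silent together with Rgt1, had 266.7 normalized reads untreated and 115.9, 125.7, 161.4, 153.1 and 169.2 at those times, all below untreated. Its mean change was −0.89 ± 0.12 (SE, adjusted p 8.74e-05 in limma). The 9 mean changes in heat shock kept their direction and their call under all 22 alternative treatments of the data. Of these, the fits lacking a rapamycin library cannot alter the values, and summing HXT6 and HXT7 alters only that of HXT7. With the untreated libraries exchanged, that is, each course set against the 0 min sample of the other, RGT2 was 1.05 and SNF3 1.69. In time trend 2 of the 9 genes rose (HXT1 and STD1) and 3 fell (HXT5, HXT7 and SNF3), where 53.7% of all genes were called, 28.3% rising and 25.4% falling. The trends of STD1 (0.18 ± 0.05 SE, adjusted p 0.00687 in limma) and SNF3 (−0.23 ± 0.07 SE, adjusted p 0.0153 in limma) were not called without the 15 min sample (0.19 and −0.12). STD1 also lost the call under quantile normalization (0.06), and SNF3 under equal totals (−0.06) and with the slope in minutes (−0.33 per 60 min). Under equal totals the trend of STD1 was 0.35. The summed normalized reads of a library were 4.38e+06 at 15 min and 3.05e+06 at 120 min of heat shock, so small trends here depend on the scaling. Over the 9 genes, 4 of them higher and 5 lower, the median change in heat shock was −0.89, the value of STD1. It does not describe a shared shift of the group. The median over all genes tested was −0.08.

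**Figure D2:**
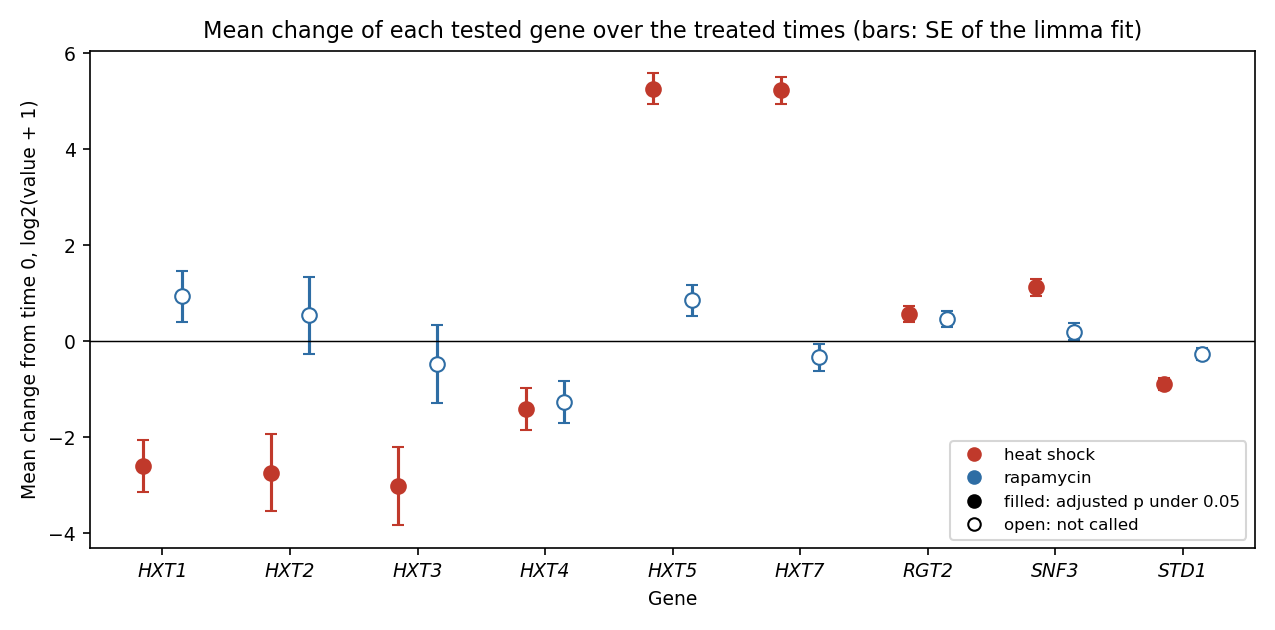
Mean change from time 0 on the log2(value + 1) scale for the 9 tested genes in heat shock (red, left) and with rapamycin (blue, right), with bars for the SE of the limma fit and filled points for an adjusted p under 0.05. All 9 red points are filled, from −3.02 for HXT3 to 5.27 for HXT5, and no blue point is.

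The same reads can be set out as shares of the 7 transporters, which restates the exchange and is not separate evidence of it. HXT5 and HXT7 together held 1.12% of the reads of the 7 transporters in the untreated heat shock library (95% Wilson interval 0.858% to 1.47%). After 15 min their share was 71.0%, and it peaked with 90.2% after 30 min (89.2% to 91.1%). Later shares were 70.9% after 60 min, 55.0% after 90 min and 48.3% after 120 min (47.1% to 49.6%). HXT5 alone held 77.6% at 30 min. The summed level of the 7 genes lay between 1623 normalized reads per kb (60 min) and 4031 (15 min) in the treated samples, against 3914.5 before treatment. In the rapamycin course the share of HXT5 and HXT7 stayed between 1.31% and 2.70% in all 6 libraries. All these shares and the summed level count HXT7, whose level is uncertain because 4.93% of its 50-base words occur once in the genome. The share of HXT5 alone depends on it too, and the intervals do not cover this uncertainty.

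**Figure D3:**
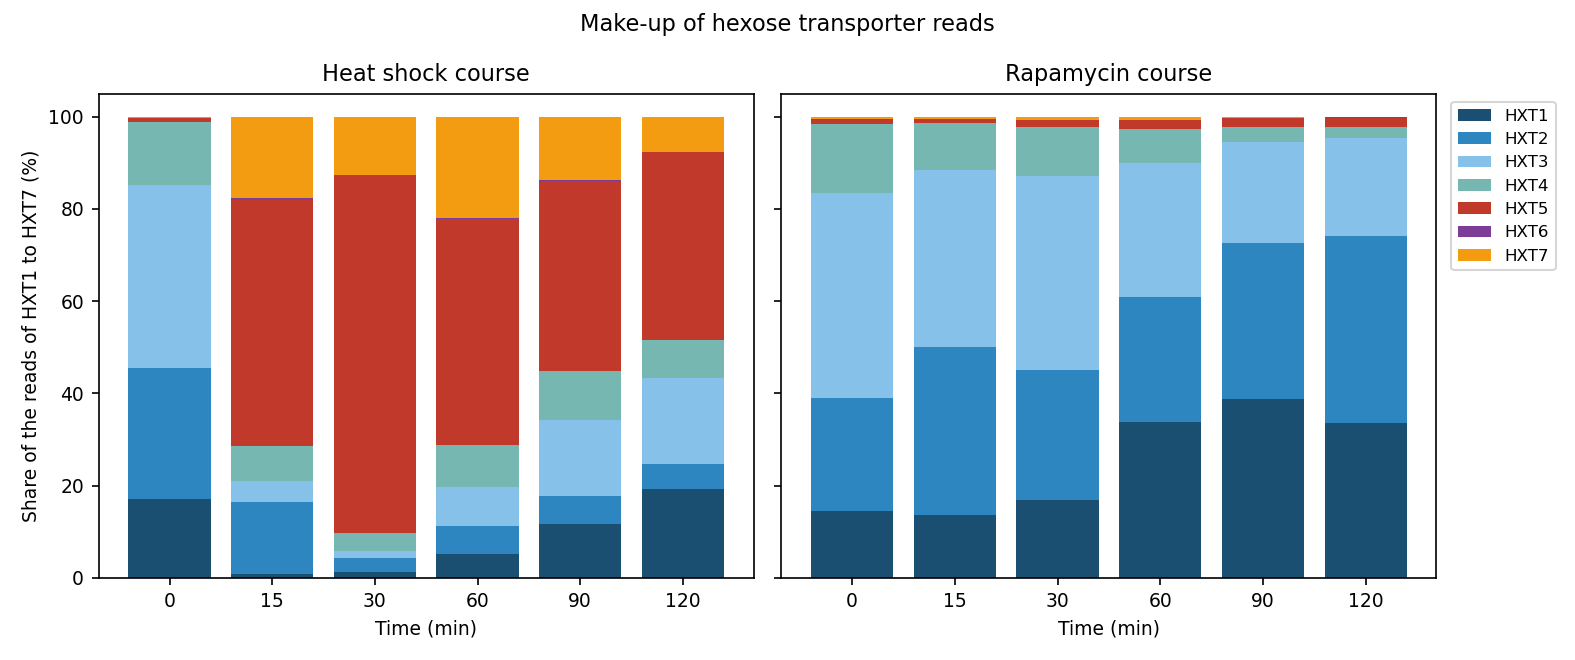
Share (%) of the reads of HXT1 to HXT7 taken by each gene in each library, with the heat shock course on the left and the rapamycin course on the right, and time in minutes on the horizontal axis. HXT5 and HXT7 fill 90.2% of the bar at 30 min of heat shock and at most 2.70% of any rapamycin bar.

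The sequence upstream of HXT1, HXT3, HXT5 and HXT7 is shown for the 2 low-affinity genes that fell most at 15 or 30 min and the 2 genes that rose. Each is the 300 bases from −600 to −301 before the start codon, in the direction of the gene, from the RefSeq R64 genome and not from the strain itself. The window was chosen after its motifs had been seen, so the motif counts below cannot test for an excess over other genes. None of the 4 windows overlaps an annotated coding region. Capitals mark CGGANNA, written for the repressor Rgt1, and AGGGG, the stress response element of the activators Msn2 and Msn4, each on either strand.
HXT1, chrVIII:292926-293225, minus strand: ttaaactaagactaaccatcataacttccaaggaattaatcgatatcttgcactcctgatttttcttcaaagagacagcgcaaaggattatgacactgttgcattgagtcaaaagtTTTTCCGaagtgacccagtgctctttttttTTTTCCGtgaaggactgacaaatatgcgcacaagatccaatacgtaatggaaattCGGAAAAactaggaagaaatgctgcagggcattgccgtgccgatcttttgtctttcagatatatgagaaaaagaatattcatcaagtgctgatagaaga
HXT3, chrIV:1164961-1165260, minus strand: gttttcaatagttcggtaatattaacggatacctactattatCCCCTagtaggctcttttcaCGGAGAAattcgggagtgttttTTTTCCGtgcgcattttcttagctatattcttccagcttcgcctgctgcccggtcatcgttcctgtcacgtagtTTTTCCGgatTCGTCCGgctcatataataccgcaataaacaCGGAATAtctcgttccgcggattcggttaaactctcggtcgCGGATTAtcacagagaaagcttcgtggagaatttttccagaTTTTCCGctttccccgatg
HXT5, chrVIII:296748-297047, minus strand: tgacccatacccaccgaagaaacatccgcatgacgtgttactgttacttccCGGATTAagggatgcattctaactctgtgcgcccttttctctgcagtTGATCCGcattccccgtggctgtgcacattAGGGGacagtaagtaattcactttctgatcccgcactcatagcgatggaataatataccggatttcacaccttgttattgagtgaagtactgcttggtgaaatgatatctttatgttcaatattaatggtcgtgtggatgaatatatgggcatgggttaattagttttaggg
HXT7, chrIV:1156229-1156528, minus strand: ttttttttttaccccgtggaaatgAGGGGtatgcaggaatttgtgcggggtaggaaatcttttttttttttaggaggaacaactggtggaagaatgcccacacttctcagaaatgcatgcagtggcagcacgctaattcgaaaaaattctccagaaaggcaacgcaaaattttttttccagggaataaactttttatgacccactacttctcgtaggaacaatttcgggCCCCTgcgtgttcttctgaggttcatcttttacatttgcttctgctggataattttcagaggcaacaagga
The Rgt1 motif occurred 3 times in the HXT1 window, 7 times in that of HXT3, 2 times in that of HXT5 and 0 times in that of HXT7. The stress response element occurred 0, 1, 1 and 2 times in the same order of genes. Among windows of the same place and length of 5019 listed genes, 29.0% held the Rgt1 motif at least once and 5.48% at least 2 times, and 23.0% held the stress response element at least once and 3.67% at least 2 times. HXT2 had 3 Rgt1 motifs and no stress response element in its window, and HXT4 had 1 of each. HXT6 had 1 Rgt1 motif and 2 stress response elements, STD1 had 1 stress response element, and RGT2 and SNF3 had neither. The Mig1 motif, GGGG preceded by CC, CT, GC or GT on either strand, was in 18.0% of all windows. It occurred 2 times in the windows of HXT2 and HXT4, 3 times in that of HXT6 and once in those of HXT7 and SNF3. The heat shock motif searched, GAANNTTC and, counted with it, TTCNNGAA, each its own reverse complement, was in 24.2% of all windows, and once each in those of HXT1, HXT2, HXT4 and HXT6. The windows of HXT4 and SNF3 overlap an annotated coding region. A match is a match of letters and not evidence of binding.

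With rapamycin none of the 9 tested genes was called in mean change by limma, whereas 26.3% of all genes were (12.3% higher and 13.9% lower). The fit has 1 residual for both courses, so a gene has the same SE in each, for HXT1 0.54. Departures from a straight line in heat shock thus enter the rapamycin tests too, and a missing call does not show a small change. At an unadjusted p under 0.05 in limma there were 3 (HXT4, HXT5 and RGT2). The share of all genes at this threshold was not counted, so the 3 cannot be set against it. By edgeR on the recovered reads 1 of the 9 was called (HXT4), against 1361 of the 4937 genes tested. The median of the 9 was 0.20, against −0.05 over all genes. In the late libraries HXT1 stood above and HXT4 below its untreated value, and HXT2 and HXT3 had exchanged their order per kilobase. In time trend 3 of the 9 were called, all falling, against 18.2% of all genes in either direction, 8.32% rising and 9.88% falling.

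HXT4 had 775.3 normalized reads untreated and 845.0, 504.0, 288.0, 185.3 and 151.1 at 15, 30, 60, 90 and 120 min of rapamycin, lower at each successive time from 15 min. The untreated value was 5.13 times that at 120 min (4.35 to 6.08). The trend was −0.84 ± 0.16 per doubling of time (SE, adjusted p 0.0088 in limma), and was not called without the 15 min (−0.88) or the 120 min (−0.83) rapamycin library. The mean change was −1.27 ± 0.44 (SE, adjusted p 0.0572 in limma) and was called in 7 of the 22 alternatives, which were edgeR on the recovered reads, the untreated libraries exchanged (−1.49) or pooled (−1.38), and fits lacking the heat shock sample of 15, 30, 60 or 120 min, which leave the value itself as it was.

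HXT1 had 746.9 normalized reads untreated and 1128, 812.0, 1351, 2171 and 2199 at the rapamycin times, above untreated in all 5, though the interval at 30 min (0.981 to 1.20) included 1. The last 2 libraries stood at 2.91 times (2.68 to 3.16) and 2.94 times (2.72 to 3.19) the untreated value. Its mean change was 0.93 ± 0.54 (SE, adjusted p 0.220 in limma). Against the 0 min sample of the other course, which was itself higher, the mean change was 0.34. HXT5 had 49.23 normalized reads untreated and 67.60, 72.48, 82.01, 105.7 and 136.5 at those times, each above the one before. The ratio at 120 min was 2.77 (2.01 to 3.87), and the mean change was 0.85 ± 0.32 (SE, adjusted p 0.0718 in limma). That change was called with the untreated libraries pooled (0.73) and in fits lacking the heat shock sample of 60 or 120 min (0.85).

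HXT2 had 1276 normalized reads untreated and 3000, 1351, 1081, 1899 and 2654 at the rapamycin times. It was highest at 15 min, lowest at 60 min and again 2.08 times untreated at 120 min (1.95 to 2.22), so its mean change of 0.54 ± 0.80 (SE, adjusted p 0.658 in limma) joins both signs. HXT3 had 2295 normalized reads untreated and 3148, 2018, 1160, 1224 and 1388 at those times. It was above untreated at 15 min and below it at the 4 later times, with an untreated value 1.65 times that at 120 min (1.55 to 1.76) and a mean change of −0.47 ± 0.82 (SE, adjusted p 0.708 in limma). In the untreated library of this course HXT3 led the order per kilobase, at 60 and 90 min HXT1 did, and at 120 min HXT2 led with 1632 normalized reads per kb, followed by HXT1 with 1284 and HXT3 with 814.5.

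HXT7 had 28.40 normalized reads untreated and 40.19, 33.97, 25.75, 14.55 and 10.36 with rapamycin, on 12 to 44 reads per treated library. It had a trend of −0.61 ± 0.11 per doubling of time (SE, adjusted p 0.00542 in limma), a call that did not hold without the 120 min rapamycin library (−0.50). HXT6 had 7 reads untreated and 3 to 6 reads per treated library, and every interval of its ratio to untreated included 1. STD1 had 230.0 normalized reads untreated and 243.0, 210.6, 196.5, 161.0 and 154.6 at those times, with a trend of −0.22 ± 0.05 (SE, adjusted p 0.0118 in limma). That call was lost without the 15 min (−0.24) or the 120 min (−0.21) rapamycin library. RGT2 had 105.1 normalized reads untreated and 129.0 to 174.5 in the treated libraries, and SNF3 71.95 untreated and 73.43 to 99.32. Their mean changes of 0.47 ± 0.17 and 0.20 ± 0.18 (SE) had adjusted p of 0.0654 and 0.437 in limma. Against the 0 min sample of the other course they were −0.03 and −0.37. RGT2 was called under equal totals (0.56) and in the fit lacking heat shock at 60 min (0.47). STD1 had a mean change of −0.27 ± 0.12 (SE, adjusted p 0.127 in limma), which was called with the untreated libraries exchanged (−0.48) or pooled (−0.38).

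The courses were then compared directly, as the heat shock change minus the rapamycin change. The mean changes differed in 6 of the 9 genes, 3 above 0 and 3 below, against 45.9% of all genes (21.7% above and 24.2% below). HXT7 differed by 5.57 ± 0.40 and HXT5 by 4.41 ± 0.45 (SE, adjusted p 1.11e-05 and 6.96e-05 in limma). HXT1, below untreated in all 5 heat shock libraries and above it in all 5 rapamycin libraries, differed by −3.54 ± 0.76 (SE, adjusted p 0.00392 in limma). These 3 calls and that of SNF3 (0.92 ± 0.25 SE, adjusted p 0.0128) held under all 22 alternatives. Their sizes depended on the untreated libraries: with these exchanged HXT7 differed by 3.93, HXT5 by 4.90, HXT1 by −2.35 and SNF3 by 2.05.

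The difference of HXT2 was −3.28 ± 1.14 (SE, adjusted p 0.0367 in limma). It lost its call under 7 alternatives, among them no filter on low values, the slope in minutes, the untreated libraries exchanged (−2.17), and fits lacking the 90 min sample of heat shock (−3.35) or the 15, 90 or 120 min sample of rapamycin (−2.90, −3.26 and −3.05). That of STD1 was −0.62 ± 0.17 (SE, adjusted p 0.0141 in limma), and was not called under equal totals (−0.44) or with the untreated libraries exchanged (−0.19). HXT3 differed by −2.55 ± 1.16 (SE, adjusted p 0.0944 in limma), and was called with the untreated libraries pooled (−2.36) or in fits lacking the 15 min (−3.39) or 30 min (−2.08) sample of heat shock. HXT4 had a difference of −0.15 ± 0.62 and RGT2 one of 0.09 ± 0.24 (SE, adjusted p 0.858 and 0.766 in limma). These errors leave room for differences of about the size of either gene's own mean change. HXT4 was called once the 15 min sample of heat shock was left out (−0.60), and RGT2 with the untreated libraries exchanged (1.08) or pooled (0.59).

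The time trends of the courses differed in 6 of the 9 genes, against 47.1% of all genes (26.0% above 0 and 21.0% below). HXT1, HXT3 and HXT4 had trends higher in heat shock than with rapamycin, by 0.98 ± 0.28, 1.17 ± 0.43 and 0.86 ± 0.23 per doubling of time (SE, adjusted p 0.0176, 0.0463 and 0.0126 in limma). The trend of STD1 differed by 0.40 ± 0.06, that of HXT5 by −0.72 ± 0.17 and that of SNF3 by −0.28 ± 0.09 (SE, adjusted p 0.000901, 0.00586 and 0.0308 in limma). The calls of STD1 and HXT5 held under all 22 alternatives. Exchanging the untreated libraries cannot change a trend, and summing HXT6 and HXT7 did not change those of STD1 and HXT5. HXT3 lost its call under 9 of them and SNF3 under 8, HXT1 under quantile normalization (0.83) and in fits lacking heat shock at 120 min (0.71) or rapamycin at 15 min (0.62), and HXT4 in the last of these (0.90). Without the 15 min heat shock sample the differences were larger, 1.63 for HXT1, 2.38 for HXT3 and 1.5 for HXT4, and all 3 were called.

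The other 11 hexose transporter genes of the table had low counts, and 8 of them passed the filter on low values. In heat shock HXT9, HXT10, HXT11 and HXT12 were called higher, with mean changes of 2.75, 2.86, 3.09 and 1.95, and GAL2, the galactose permease gene, was called lower (−0.60). GAL2 turned to 0.59 with the untreated libraries exchanged and lost its call under 5 further alternatives, among them equal totals (−0.33). HXT15 was not called (1.16, adjusted p 0.148 in limma). With rapamycin HXT9, HXT11 and HXT12 were called higher (1.19, 1.53 and 1.39), as was GAL2 (0.81). GAL2 turned to −0.38 with the untreated libraries exchanged and was not called with them pooled (0.22), under quantile normalization (0.41) or in the fit lacking rapamycin at 90 min (0.77). HXT11 stood at 71.57 normalized reads after 120 min of heat shock, against 5.70 untreated, and at 49.23 after 120 min of rapamycin, against 9.47 untreated. HXT9 and HXT11 share most of their sequence, with 38.1% and 32.9% of their 50-base words found once in the genome, so their counts are uncertain. HXT12 had no single coding region in the annotation used and was not searched for such words. How far its counts are its own is therefore not known here. HXT16 had 1 read in 1 of the 12 libraries and 0 in the others, where 0 reads allow a counted value of up to 2.44 to 4.28. In HXT15 and HXT16 5.80% and 6.04% of the 50-base words were found once in the genome. Their counts are therefore uncertain too, and this bound does not cover reads lost to shared sequence.

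Of the 5 further genes of the glucose induction pathway, RGT1, the repressor gene, was called higher in heat shock (0.81 ± 0.17 SE, adjusted p 0.00152 in limma) and with rapamycin (0.56 ± 0.17 SE, adjusted p 0.0364). The rapamycin call was lost in 9 alternatives, and the change was −0.11 with the untreated libraries exchanged. YCK2 was called lower in heat shock (−0.59), but not under equal totals (−0.31), quantile normalization (−0.38) or with the untreated libraries exchanged (−0.29). MTH1, the partner of STD1, had 68.46 normalized reads untreated and 66.09, 117.4, 156.4, 140.8 and 150.5 in heat shock, with a mean change of 0.81 ± 0.35 (SE, adjusted p 0.0618 in limma). YCK1 and GRR1, a ubiquitin ligase gene, were not called in either course.

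Of the 4 genes for kinases that phosphorylate glucose after its entry, 3 were called higher and 1 lower in heat shock, in which 69.8% of all genes were called. HXK1, a hexokinase gene, stood at 24899 normalized reads after 15 min of heat shock, against 102.7 untreated, and the glucokinase gene GLK1 at 32610, against 316.6 untreated. Their mean changes were 6.12 ± 0.31 and 5.64 ± 0.24 (SE, highest adjusted p 1.23e-07 in limma), and that of EMI2, a gene related to GLK1, was 2.81 ± 0.33. HXK2, the main hexokinase gene of cells in abundant glucose, fell to 1923 normalized reads at 120 min, against 5014 untreated, with a mean change of −1.06 ± 0.28 (SE, adjusted p 0.00616 in limma) that quantile normalization left uncalled (−0.50). With rapamycin GLK1 and HXK1 were called higher, by 1.86 and 1.28, the second not with the slope in minutes, and EMI2 and HXK2 were not called.

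Among 10 glucose-repressed genes 8 were called higher in heat shock and 1 lower, where 32.6% of all genes were called higher and 37.2% lower. Their median change was 1.44, against −0.08 for all genes. SIP4 (3.52), ADR1 (2.80), PCK1 (1.90), FBP1 (1.57), MLS1 (1.48), JEN1 (1.40), CAT8 (1.31) and ICL1 (0.61) rose. They encode activators of genes for nonfermentable carbon (SIP4, ADR1, CAT8), enzymes of gluconeogenesis and the glyoxylate cycle (PCK1, FBP1, MLS1, ICL1) and a lactate carrier (JEN1). ADH2, an alcohol dehydrogenase gene, fell by 1.46, and SUC2, the invertase gene, was not called (0.64, adjusted p 0.0996 in limma). With rapamycin ADR1 (2.20) and ICL1 (0.71) were called, 2 of 10 where 26.3% of all genes were called, and ICL1 not with the untreated libraries exchanged (0.39).

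Of the 15 genes of Snf1 and glucose repression, 7 were called higher and 2 lower in heat shock, where 69.8% of all genes were called (32.6% higher and 37.2% lower). SIP2, a subunit gene of the Snf1 kinase, rose by 2.21, and the repressor genes MIG2 and MIG3, relatives of MIG1, by 1.70 and 1.72. The others were TOS3 (1.11) and REG1 (0.69), GAL83 (0.81) and SNF4 (0.39), the last not called with the untreated libraries exchanged (0.17). CYC8, a corepressor gene, fell by 0.82, and ELM1, a kinase gene, by 0.61, though not to a called extent under equal totals (−0.33). MIG1 had 94.56 normalized reads at 15 min, against 186.8 untreated, and was not called in mean change (−0.34). With rapamycin, where 26.3% of all genes were called, 4 of the 15 were called higher (SIP2, TUP1, SNF1 and GAL83, 0.43 to 0.86) and 1 lower (ELM1, −0.66). With the untreated libraries exchanged SNF1 was −0.28 and TUP1 −0.17, and of these 5 only SIP2 kept its call. GAL83 lost its call under 9 of the 22 alternatives, every fit lacking 1 rapamycin library among them, TUP1 under 6, SNF1 under 3 and ELM1 under 1, the exchange included.

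Of 12 genes for the ubiquitin ligase Rsp5 and its adaptors, which mark plasma membrane permeases for endocytosis, 6 were called higher and 1 lower in heat shock, against 32.6% of all genes higher and 37.2% lower. CSR2 and ECM21 rose most (2.10 and 2.09), followed by ROG3 (1.26) and ROD1 (1.12), whose products act on hexose transporters. ART10 rose by 1.05 and ALY2 by 0.65, and BUL2 fell by 0.50. The call of ALY2 was lost with the untreated libraries exchanged (0.25) and that of BUL2 under equal totals (−0.22). RSP5 itself was not called (0.13). With rapamycin, where 12.3% of all genes were higher and 13.9% lower, ECM21 (1.11) and CSR2 (0.80) were called higher, CSR2 not with the untreated libraries exchanged (0.43), and ALY2 lower (−0.41), a call lost in 14 alternatives.

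Median changes in heat shock, where all genes tested had a median of −0.08, were 1.56 for the other hexose transporter genes, 0.24 for the induction pathway, 0.26 for Snf1 and glucose repression, 4.22 for the 4 kinases and 0.39 for Rsp5 and its adaptors. With rapamycin, where all genes had a median of −0.05, they were 0.65, 0.04, 0.43, 0.93 and 0.14 in the same order of lists, and 0.36 for the glucose-repressed genes.

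**Figure D4:**
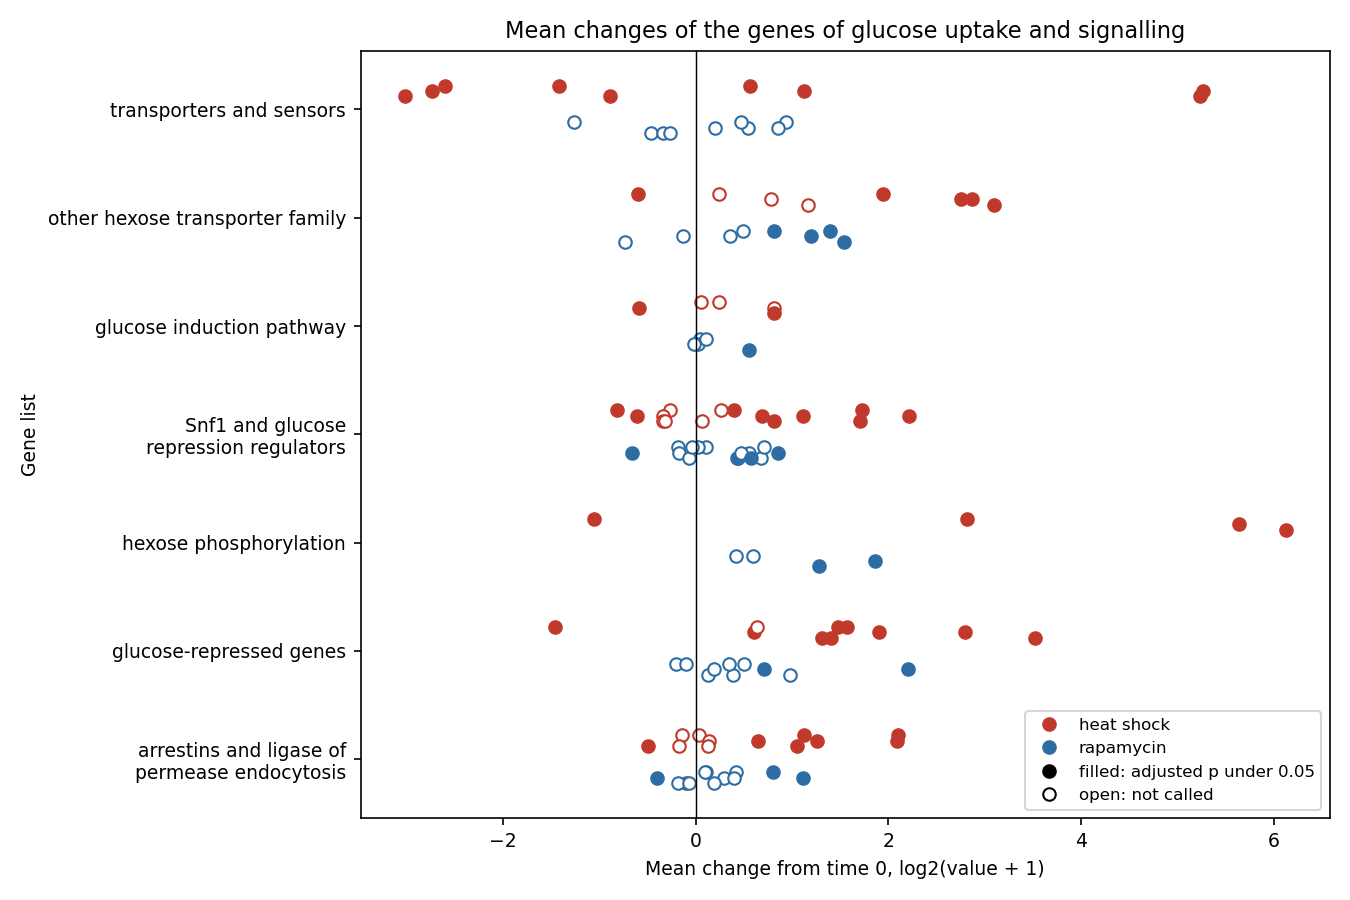
Mean change from time 0 on the log2(value + 1) scale for the tested genes of each list, with heat shock (red) above rapamycin (blue) and filled points for an adjusted p under 0.05. The red points reach from −3.02 (HXT3) to 6.12 (HXK1), and the blue ones stay between −1.27 (HXT4) and 2.20 (ADR1).

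For each of the 7 transporter genes, all of which changed by 2 or more in some library, the 2 most alike genes outside the 10 were found by the root-mean-square difference of log2 changes over the 10 treated libraries, among 4810 genes with a mean of at least 50. HXT5 had the closest partners, MSC1 (YML128C) at 0.258 and TFS1 (YLR178C) at 0.333, where the median gene was at 3.88. MSC1 stood at 6.20 at 15 min and 5.06 at 120 min of heat shock, and at 0.11 and 0.94 at these times of rapamycin. HXT4 was nearest to CDC20 (YGL116W, 0.440) and CHS2 (YBR038W, 0.478), HXT1 to TOS6 (YNL300W, 0.617) and SVS1 (YPL163C, 0.834), and HXT3 to NOP19 (YGR251W, 0.638) and RPC34 (YNR003C, 0.671). HXT7 was nearest to RTC2 (YBR147W, 0.741) and TDH1 (YJL052W, 0.782). HXT2 was nearest to HTB2 (YBL002W, 0.858) and TOS1 (YBR162C, 0.908), neither of which shared its high value at 15 min of rapamycin (0.10 and −0.23, against 1.23 for HXT2). HXT6, on few reads, was nearest to TIP1 (YBR067C, 0.466) and MDH1 (YKL085W, 0.470).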

How the data were processed

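PolyA RNA of the Sis1-AA strain was extracted with phenol and chloroform and made into libraries with an NEB kit, per the labels' protocols. Bowtie, HTSeq and the sacCer3 build are named in the submitters' processing notes. Versions, strand setting, annotation and normalization method are not given in the sources used here. A single deposited table covers 5045 genes and 12 libraries. Its values are a signal, gene read counts already normalized by the authors, per the file headers. Within a library each value was a whole multiple of 1 step (0.8133 to 1.426), so 100% of the values gave whole reads within 0.05 read. The totals were 2991418 to 4379304 reads.

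Values were compared as log2(value + 1), which understates changes of genes with few reads. Genes with a mean of at least 10 were tested (4937, with 108 left out) in 1 limma fit (limma 3.58.1, R 4.3.3; eBayes with trend) with an intercept, a step and a slope in log2(time) for each course, 6 residual degrees of freedom and 4.29 prior ones. Adjusted p-values are Benjamini-Hochberg values over all genes tested. Ratios of single libraries have exact conditional binomial intervals and shares have Wilson intervals, at 95%. Coding sequences were aligned with Biopython 1.88. The 22 alternatives were other pseudocounts (0.5 and 5), filters, scalings, slopes and baselines, edgeR 4.0.16 on recovered reads, HXT6 and HXT7 summed, and leaving out each treated library. The members, lists and tests were chosen with earlier results of these data known. All 10 members were named, list genes where called, and the 2 nearest genes of each member that changed by 2 or more. Genes of the annotation that the table does not list were not analysed here.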

Additional observations from a re-analysis of the deposited data

Results flagged for a closer look

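The following results differed between the courses by the fitted difference (heat shock minus rapamycin, log2 scale, limma), and their causes were not tested. In mean change HXT7 differed by 5.57, HXT5 by 4.41 and SNF3 by 0.92, while HXT1 differed by -3.54, HXT2 by -3.28 and STD1 by -0.62. In trend per doubling of time HXT3 differed by 1.17, HXT1 by 0.98, HXT4 by 0.86 and STD1 by 0.40, while HXT5 differed by -0.72 and SNF3 by -0.28. HXT6, on few reads, was above its untreated value in all 5 heat shock libraries (median 7.11 normalized reads, against 2.85 untreated) and below it in all 5 rapamycin libraries, and this difference was not tested.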

How the results depend on the processing

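Each condition has 1 library, so the tests rest on how far the libraries depart from a smooth course, and each course rests on 1 untreated library. Exchanging the untreated libraries turned the rapamycin mean changes of HXT2 (-0.01), HXT7 (0.48), RGT2 (-0.03), SNF3 (-0.37), GAL2 (-0.38), RGT1 (-0.11), SNF1 (-0.28) and TUP1 (-0.17), that of GAL2 in heat shock (0.59), and the differences between courses of HXT4 (0.29), GAL2 (0.97), MIG1 (0.54) and TUP1 (0.59). Pooling them turned the rapamycin changes of HXT7 (0.07) and SNF3 (-0.08) and the difference of HXT4 (0.07), and raised the genes that differed between courses to 3794, against 2267. Quantile normalization turned SNF3 (-0.01) and the rapamycin trend of HXT2 (0.00). Equal totals, which shifts the median gene by -0.204 to 0.318, turned the difference of HXT4 (0.03) and the trend of RGT2 in heat shock (0.02) and between courses (0.08). Under equal totals 60.3% of heat shock calls, 64.9% of rapamycin calls and 58.8% of calls between courses were higher, against 46.6%, 47.0% and 47.2%. With edgeR the heat shock trend of HXT4 was -0.03.

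With the slope in minutes 768 genes were called in rapamycin mean change and 442 in its trend, against 1296 and 899, and the trend of HXT2 was 0.12. Of the 9 tested genes, the rapamycin mean change called 1 under equal totals and 1 with edgeR, 2 with the untreated libraries exchanged and 3 with them pooled, and 0 to 3 when 1 treated library was left out. Over all genes tested the counts were 1215, 1361, 923, 1649 and 915 to 1632 in the same order. Leaving out 1 treated library gave 1440 to 2674 genes and 3 to 7 of the 9 in heat shock trend, 224 to 1320 genes and 0 to 5 in rapamycin trend, and 1440 to 2354 genes and 3 to 6 in the difference of trends. It turned the difference of HXT4 (range -0.60 to 0.10), the heat shock trends of HXT2 (-0.78 to 0.53) and HXT4 (-0.13 to 0.67), the rapamycin trends of HXT2 (-0.31 to 0.48) and SNF3 (-0.02 to 0.19), and the differences of trend of HXT2 (-0.99 to 0.59) and RGT2 (-0.14 to 0.01). The causes were not tested. No paired analysis was possible because each condition has 1 library.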
